A study of Mus musculus with 8 samples.

Results

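Ebf1, Pax5, Rag1, Rag2 and Il7r are genes of the lymphoid branch of blood formation. Their chromatin accessibility was examined in 2 sorted fractions of mouse MPP2 cells, progenitors of the bone marrow that lean toward megakaryocytes and red cells. The members were all ATAC-seq peaks that overlapped 1 of 4 windows set around these genes on the mm9 build, 29 of the 134473 peaks in the deposited count table. Ebf1 (chr11:44420000-44830000) held 12 peaks and Pax5 (chr4:44535000-44735000) held 9. Rag1 and Rag2, which lie side by side and share a window (chr2:101465000-101510000), held 5, and Il7r (chr15:9425000-9475000) held 3. The members were taken by position alone, and the windows were set with earlier results of these data known.

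All cells came from bone marrow of C57BL/6 mice aged 8 to 12 weeks and were sorted as lineage-negative, Sca1-positive and Kit-positive, without Flt3 and with CD150 and CD48. Both fractions were positive for Gata1. One was also positive for Vwf (Vwf+Gata1+), the other negative (Vwf-Gata1+). Each fraction had 4 libraries of 500 cells, and the comparison asks whether accessibility differs with Vwf. The labels do not say whether libraries came from separate animals, so the p-values measure the spread between libraries, which may be technical. The gate itself removes cells with Flt3 on their surface, the receptor that marks the progenitors best known for lymphoid output. In a bulk sample a site open in fewer cells and a site less open in each cell cannot be told apart. Marker loci of the gate and of other lineages were not analysed here, because no annotation of the mm9 build was used.

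B cells and T cells arise through an ordered set of regulators. Il7r encodes the receptor chain for interleukin 7, which carries survival and growth signals to early lymphoid progenitors. Ebf1 encodes a transcription factor that opens the B cell program, and Pax5 encodes the factor that commits cells to it. Rag1 and Rag2 together encode the recombinase that cuts antigen receptor genes. Sites near such genes can be accessible in progenitors before the genes are used.

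RefSeq start sites of all 5 genes were present on the GRCm38.p6 build, with a pair of starts for Ebf1. They are of another build than the peaks, so no peak was assigned to a start site, exon or intron. The 250 bases before 2 of these starts are shown because they hold TGTGGT, the core letters bound by RUNX factors (regulators in both stem cells and lymphoid cells). The letters were searched on both strands, were chosen after the sequences were seen, and stand in capitals. The Rag1 stretch is chr2:101649533-101649782 on the minus strand, and the Ebf1 stretch is chr11:44617850-44618099 on the plus strand.
Rag1: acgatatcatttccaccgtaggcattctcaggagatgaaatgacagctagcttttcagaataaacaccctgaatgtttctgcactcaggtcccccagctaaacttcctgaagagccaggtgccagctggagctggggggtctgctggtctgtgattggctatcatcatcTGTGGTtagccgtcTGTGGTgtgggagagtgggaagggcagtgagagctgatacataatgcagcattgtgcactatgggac
Ebf1: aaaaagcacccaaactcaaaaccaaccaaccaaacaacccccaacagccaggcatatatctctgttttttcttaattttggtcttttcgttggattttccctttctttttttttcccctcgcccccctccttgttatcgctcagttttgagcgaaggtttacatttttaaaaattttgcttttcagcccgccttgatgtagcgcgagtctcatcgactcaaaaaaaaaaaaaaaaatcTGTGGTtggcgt
TGTGGT occurred in 14.0% of 32851 such stretches from all RefSeq starts, and 2 or more matches, as for Rag1, in 1.27%. No match was found for Rag2, Pax5, Il7r or the other Ebf1 start. The GATA letters AGATAA, present in 9.99% of stretches, were found at none of the 5 genes. The ETS letters AGGAAG (29.5% of stretches) occurred once each at Rag1 and Il7r, and the EBF letters CCCNNGGG (11.8%) at none. A match describes letters in this window only, and whether these stretches were accessible was not determined.

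The libraries held between 4628997 and 7753538 counts in peaks. Signal is given as CPM, counts scaled to a fixed library total, after TMM scaling, a correction for differences in library composition, with the SD over 4 libraries. A single count was worth between 0.131 and 0.229 CPM. Libraries of a group differed by more than sampling noise (chi-square per degree of freedom 1.32 to 2.09), so none looked like 1 library deposited more than once. This does not tell separate animals from separate preparations of 1 sample.

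All 4 loci held accessible sites, most of them of ordinary strength. The median member had 2.79 CPM against 2.78 CPM over all peaks, and 15 of the 29 lay above that genome median. Members had a median width of 439 bp against 393 bp. Each of the Ebf1, Pax5 and Rag windows had 1 peak above the 90th percentile of all peaks in signal, and the Il7r window had none. Every member had at least 1 count in every library. Signal was at least 1 CPM in every library for 18 of the 29 members, and for 85370 of all 134473 peaks.

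**Figure D1:**
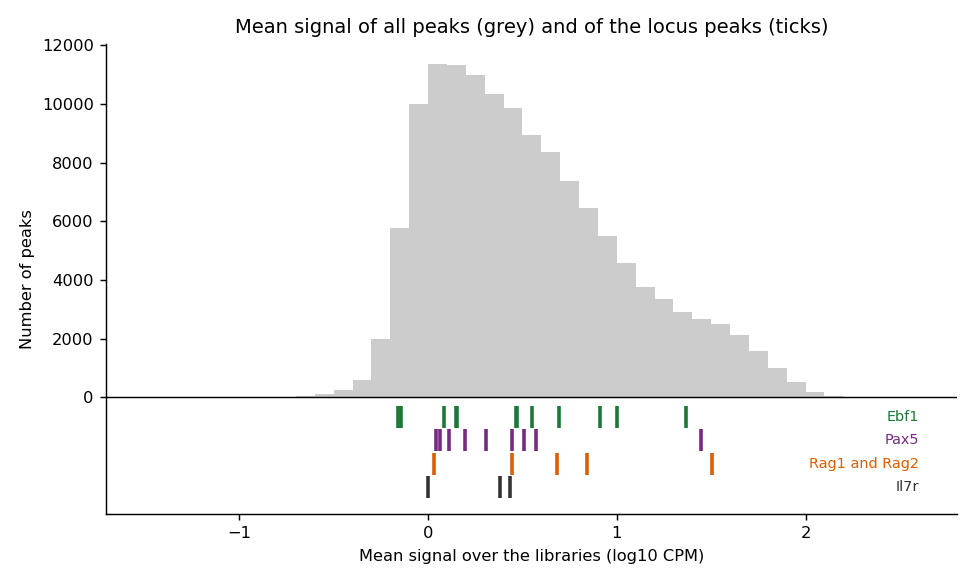
Grey bars count all 134473 peaks by mean signal over the 8 libraries (log10 CPM), and each tick below is 1 of the 29 locus peaks. Pax5 and the Rag window each have 1 tick far to the right of their others (7.51 and 4.59 times the next in CPM). The strongest Ebf1 tick is 2.34 times the next, and the 3 Il7r ticks lie at or below 2.72 CPM.

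The windows were also set beside fixed genome tiles of the same length, as a description. The tiles ran from the first to the last peak of each chromosome, whereas the windows were set around genes. The lower quartile was 0 peaks per tile at 45 and 50 kb, 1 at 200 kb and 3 at 410 kb. The 45 kb Rag window had 5 peaks where the median tile had 1, and 78.3% of tiles had fewer. Its summed signal of 47.7 CPM was above that of 86.5% of tiles. The 410 kb Ebf1 window had 12 peaks where the median tile had 14, and 46.3% of tiles had fewer. Pax5 (9 peaks, tile median 6) and Il7r (3 peaks, tile median 1) lay between, with fewer peaks in 56.5% and 62.8% of tiles. The Rag window was thus the densest for its length, and Ebf1 was near the middle of its tiles.

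Between the fractions, edgeR's quasi-likelihood test over all peaks called 0 of the 20 members that passed the filter on low counts, at an adjusted p of 0.05. The background was 0.0144% of 97040 tested peaks. At an unadjusted p under 0.05 there were also 0 of 20, where the background was 6.72%. DESeq2 and limma-voom also called 0 members, but over all peaks they called only 11 and 0. At an unadjusted p under 0.05 each had 0 members, where 3372 peaks in DESeq2 and 7236 in limma-voom passed, of 97040. No member had groups that did not overlap, against 3.88% of tested peaks. Of the 20, 12 had a log2 difference (Vwf+Gata1+ minus Vwf-Gata1+) above 0 and 8 below. Their median was 0.029 against 0.004 over all tested peaks, and the median size was 0.0878 against 0.152. The other 9 members did not pass that filter. Without it edgeR tested all 29, and 0 had an unadjusted p under 0.05, against 8576 of 134473 peaks.

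A missed threshold does not show that the fractions were alike, so the intervals are given. For 19 of the 20 tested members the 95% interval spanned less than a 2-fold change up or down, and the same held for 85.6% of all tested peaks. The exception was Pax5 peak 5. Peaks are numbered here within each window in order of position.

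**Figure D2:**
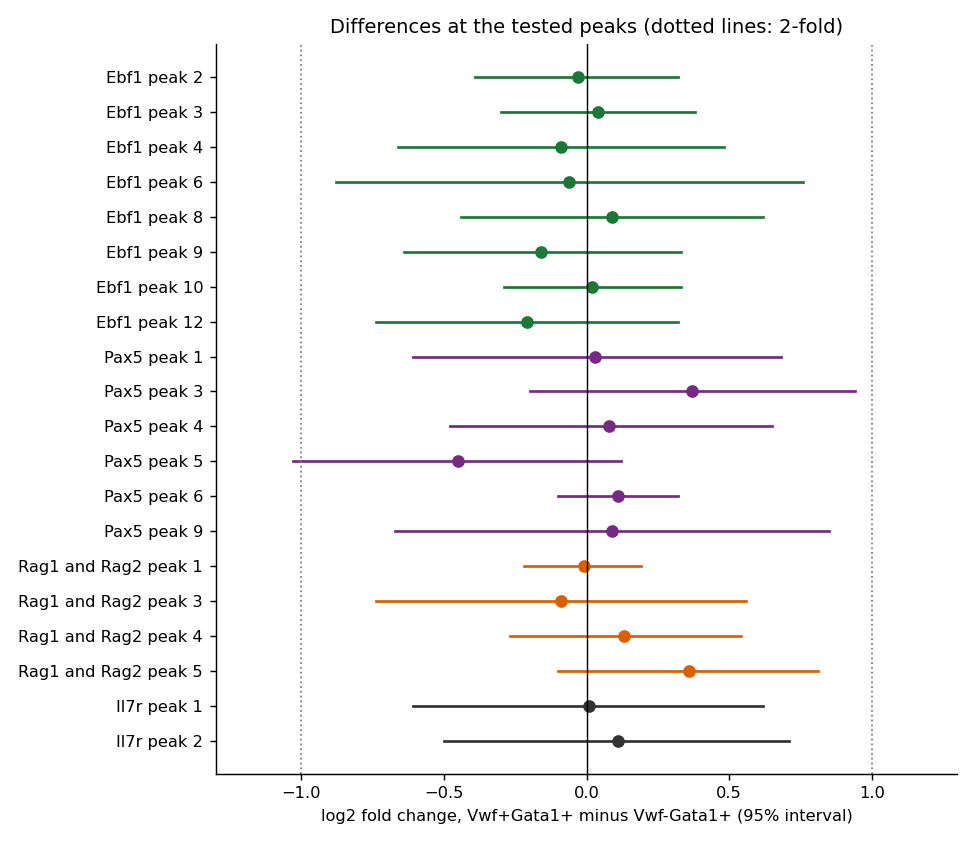
Points are log2 differences, Vwf+Gata1+ minus Vwf-Gata1+, of the 20 tested peaks from the edgeR fit, and lines are 95% intervals, coloured by locus. Every interval crosses 0, and that of Pax5 peak 5 alone reaches past a 2-fold difference.

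Il7r, whose receptor acts from early lymphoid stages on, had the lowest summed signal of the 4 loci and the weakest leading peak. The median peak was weaker at Pax5 (2.02 CPM) than at Il7r (2.4 CPM). The windows differ in length, and per 100 kb Il7r was also lowest (12.2 CPM). Against tiles of its own length it was not: its sum of 6.12 CPM exceeded the tile median of 2.02 CPM. At Ebf1 the sum of 61.4 CPM was below the tile median of 73.7 CPM. By the share of tiles with a lower sum, Il7r ranked above Pax5 (57.4%) and Ebf1 (47.6%) and below Rag (86.5%). The Il7r peaks lay within 10.1 kb of each other and none was above the genome median. Il7r peak 1 (chr15:9453489-9454162) had 1.84, 2.06, 3.9 and 3.16 CPM in replicates 1 to 4 of the Vwf+Gata1+ fraction and 2.09, 1.85, 3.51 and 3.36 CPM in those of the Vwf-Gata1+ fraction. In both groups replicates 3 and 4 were the higher pair, and the groups overlapped throughout. The log2 difference was 0.01 ± 0.30 (SE), with an adjusted p of 0.999 in edgeR and a 95% interval of 0.656 to 1.54-fold. Il7r peak 2 (chr15:9459425-9459799) had 2.77, 2.81, 2.52 and 1.87 CPM against 1.83, 1.85, 2.34 and 3.21 CPM. Its highest library was in the Vwf-Gata1+ group although that group's mean was lower, and the log2 difference was 0.11 ± 0.30 (SE), with an adjusted p of 0.979 in edgeR. Il7r peak 3 (chr15:9463314-9463591), with 3 to 10 counts per library, was not tested and had 0.958 ± 0.499 CPM against 1.05 ± 0.366 CPM (SD, n = 4 each).

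The Ebf1 locus was the most spread out. Its first 5 peaks lay at one end of the window, followed by 186 kb with no peak and then by 7 peaks around the strongest. Ebf1 peak 10 (chr11:44710531-44711482), 952 bp wide, had 19.5, 18.6, 33.0 and 23.7 CPM in replicates 1 to 4 of the Vwf+Gata1+ fraction. It had 18.2, 22.0, 28.3 and 24.1 CPM in those of the Vwf-Gata1+ fraction. The highest value of each group was in replicate 3, the library of lowest total in its group, and the part of depth in this was not tested. The group means were 23.7 ± 6.6 and 23.1 ± 4.22 CPM, a log2 difference of 0.02 ± 0.15 (SE), with an adjusted p of 0.991 in edgeR. The 95% interval ran from 0.821 to 1.26-fold. This peak was above 91.5% of all peaks in signal and held 38.5% ± 4.9 of the summed Ebf1 signal in the Vwf+Gata1+ fraction and 37.2% ± 4.21 in the Vwf-Gata1+ fraction.

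A second group of Ebf1 sites stood at the low end of the window. Ebf1 peak 3 (chr11:44430376-44430900) had 10.3, 8.07, 13.3 and 9.2 CPM against 9.02, 9.07, 9.56 and 11.7 CPM. The Vwf-Gata1+ values all lay inside the range of the Vwf+Gata1+ values. Ebf1 peak 2 (chr11:44424407-44425273), some kilobases before it, had 8.09 ± 1.43 against 8.29 ± 0.65 CPM. Their log2 differences were 0.04 ± 0.17 and -0.03 ± 0.17 (SE), with an adjusted p of 0.987 and 0.989 in edgeR. These were the sites of highest Ebf1 signal after peak 10, which was 2.34 times as strong as peak 3.

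The lowest p values at Ebf1 were also far from the threshold. Ebf1 peak 12 (chr11:44821505-44821964) had 2.77 ± 0.243 CPM in the Vwf+Gata1+ fraction and 3.16 ± 0.55 CPM in the Vwf-Gata1+ fraction, a log2 difference of -0.21 ± 0.26 (SE), with an adjusted p of 0.937 in edgeR. Ebf1 peak 9 (chr11:44706382-44707068) had 4.6 ± 1.25 against 5.21 ± 1.66 CPM, and peak 8 (chr11:44694625-44695210) had 3.7 ± 1.05 against 3.41 ± 0.961 CPM. Of the 8 tested Ebf1 peaks, 3 were above 0 and 5 below on the log2 scale, from -0.21 to 0.09, and all 8 intervals lay within 2-fold. The 4 untested peaks had mean signals from 0.695 to 1.41 CPM. Among them Ebf1 peak 11 (chr11:44742006-44742205), chosen after its values were seen, had 0.523 ± 0.254 against 0.912 ± 0.303 CPM. It rested on 1 to 7 counts per library, and its groups overlapped.

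At Pax5 the signal was concentrated in 1 wide site. Pax5 peak 6 (chr4:44716197-44717778), 1582 bp wide and thus wider than 97.4% of peaks, had 28.8, 34.0, 25.7 and 28.2 CPM in replicates 1 to 4 of the Vwf+Gata1+ fraction. It had 26.7, 25.2, 28.3 and 28.0 CPM in those of the Vwf-Gata1+ fraction. Replicate 2 of the Vwf+Gata1+ fraction was highest, and the remaining libraries of that group fell within 25.7 to 28.8 CPM. The log2 difference was 0.11 ± 0.10 (SE), with an adjusted p of 0.900 in edgeR and the 95% interval ran from 0.935 to 1.25-fold. The peak held 63.3% ± 7.1 of the Pax5 signal in the Vwf+Gata1+ fraction and 61.7% ± 3.36 in the Vwf-Gata1+ fraction. It was 7.51 times as strong as the next Pax5 peak, the steepest such step of the 4 loci, and per kb of width it stood at the 84.8th percentile of all peaks.

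The widest differences among tested members were at weaker Pax5 sites, and neither passed the test. Pax5 peak 5 (chr4:44685216-44686009) had 4.21, 1.88, 1.6 and 2.88 CPM in the Vwf+Gata1+ fraction and 4.57, 4.15, 4.29 and 2.34 CPM in the Vwf-Gata1+ fraction. The first group held the lowest pair of libraries, but its replicate 1 was above 2 of the 4 libraries of the other. The log2 difference was -0.45 ± 0.28 (SE), with an adjusted p of 0.818 in edgeR and an interval of 0.491 to 1.09-fold. Pax5 peak 3 (chr4:44595498-44595986) had 3.82, 3.57, 3.44 and 5.75 CPM against 1.7, 5.23, 4.1 and 2.34 CPM. Its Vwf-Gata1+ libraries spread from below to above most of the other group, and the log2 difference was 0.37 ± 0.28 (SE), with an adjusted p of 0.862 in edgeR. These differences within 1 locus had opposite signs. Of the 6 tested Pax5 peaks 5 were above 0, and the 3 untested ones had mean signals from 1.1 to 1.29 CPM.

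The Rag window held the strongest site of all 29. Rag peak 1 (chr2:101468519-101469437), 919 bp wide, had 28.7, 36.8, 32.8 and 29.8 CPM in replicates 1 to 4 of the Vwf+Gata1+ fraction. It had 29.0, 34.9, 33.7 and 30.9 CPM in those of the Vwf-Gata1+ fraction. The libraries of both groups fell in the same order by number, with replicate 2 highest and replicate 1 lowest. The group means were 32.0 ± 3.62 and 32.1 ± 2.67 CPM, a log2 difference of -0.01 ± 0.10 (SE), with an adjusted p of 0.993 in edgeR. Its 95% interval of 0.86 to 1.14-fold was the narrowest of the tested members. The site was above 94.2% of all peaks in signal and 96.3% per kb, and held 65.8% ± 4.07 and 68.7% ± 4.98 of the window's signal.

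The other Rag peaks stood at least 18.9 kb away. Rag peak 5 (chr2:101505287-101505812) had 6.19, 3.94, 6.42 and 5.03 CPM in the Vwf+Gata1+ fraction and 4.18, 5.23, 4.1 and 3.36 CPM in the Vwf-Gata1+ fraction. A pair of Vwf+Gata1+ libraries exceeded every library of the other group, while its replicate 2 was below 3 of them. The log2 difference was 0.36 ± 0.22 (SE), with an adjusted p of 0.819 in edgeR and an interval of 0.936 to 1.75-fold. Rag peak 4 (chr2:101492451-101493279) had 7.37 ± 1.77 against 6.61 ± 1.36 CPM, and Rag peak 3 (chr2:101489561-101489916) had 2.78 ± 1.03 against 2.82 ± 1.46 CPM, with adjusted p = 0.951 and 0.983 in edgeR. Rag peak 2 (chr2:101488344-101488590), not tested, had 1.04 ± 0.53 against 1.1 ± 0.677 CPM (SD, n = 4 each). Whether any site of the window, Rag peak 1 included, belongs to Rag1, to Rag2 or to another gene was not determined.

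**Figure D3:**
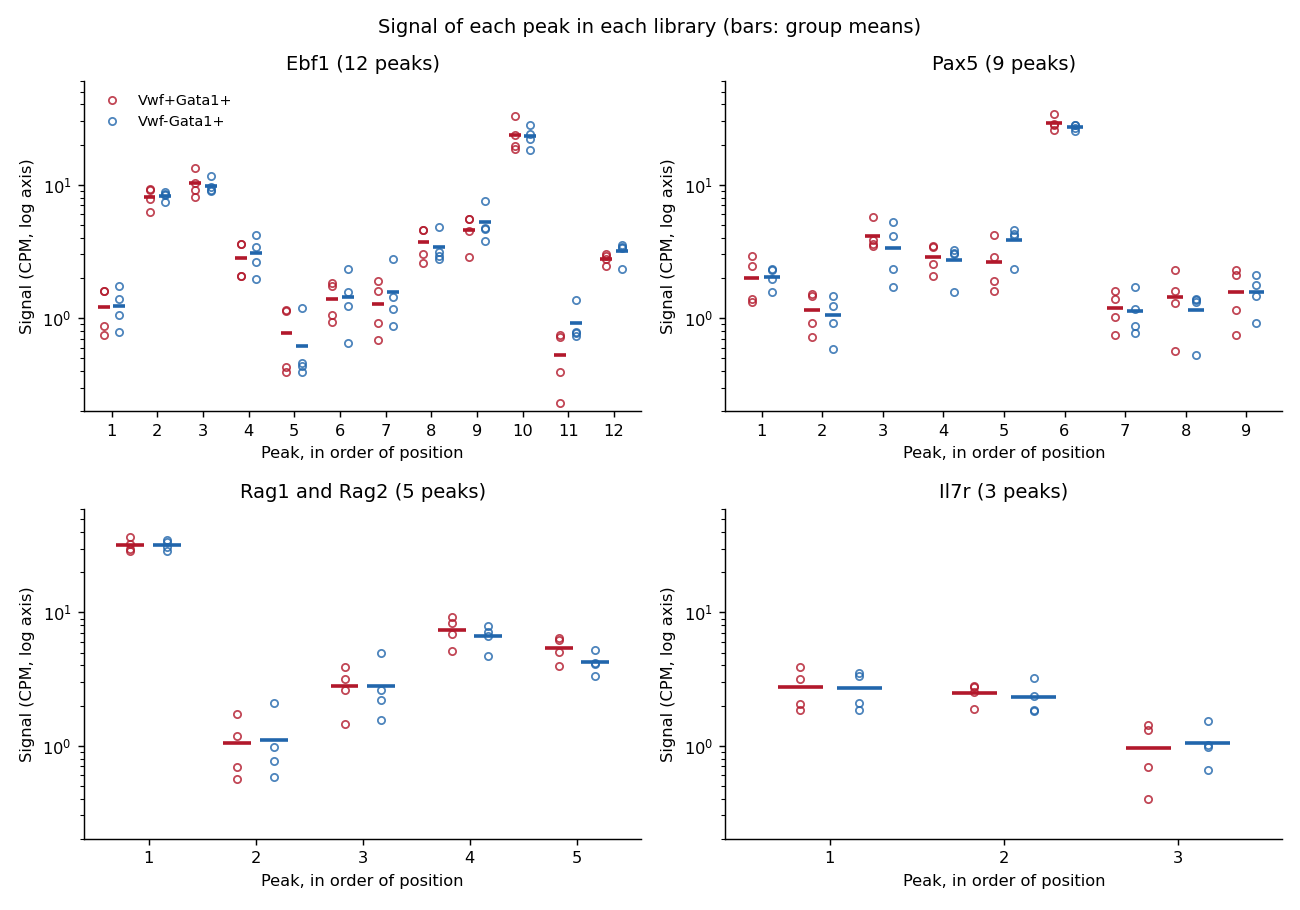
Each circle is the signal of 1 peak in 1 library (CPM, log axis) and each bar a group mean over 4 libraries, with peaks in order of position within each window. Ebf1 peak 10, Pax5 peak 6 and Rag peak 1 stand above the rest of their windows in both fractions, and circles of both groups overlap at all 29 peaks.

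Summed over all peaks of a window, the libraries of both fractions overlapped at every locus. Ebf1 had 61.0 ± 10.6 CPM in the Vwf+Gata1+ fraction and 61.9 ± 4.95 CPM in the Vwf-Gata1+ fraction, and Pax5 had 46.2 ± 4.14 and 43.9 ± 0.735 CPM. The Rag window had 48.6 ± 4.17 and 46.9 ± 4.55 CPM, and Il7r had 6.19 ± 0.88 and 6.05 ± 1.39 CPM (SD, n = 4 each). The log2 ratios of the group means were -0.02, 0.07, 0.05 and 0.03, each smaller than the spread of the log2 sums within groups (pooled SD 0.189, 0.0962, 0.131 and 0.282). Without 1 library they ran from -0.14 to 0.06 at Ebf1, 0.03 to 0.13 at Pax5, 0.02 to 0.12 at Rag and -0.08 to 0.16 at Il7r, so the sign at Ebf1 and Il7r turned with the library left out. They are given as a description with no test, since the windows were put together with earlier results of these data known. Per 100 kb of window the mean signal was 106.0 CPM at Rag, 22.5 at Pax5, 15.0 at Ebf1 and 12.2 at Il7r. The order of loci depends on where the windows end.

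**Figure D4:**
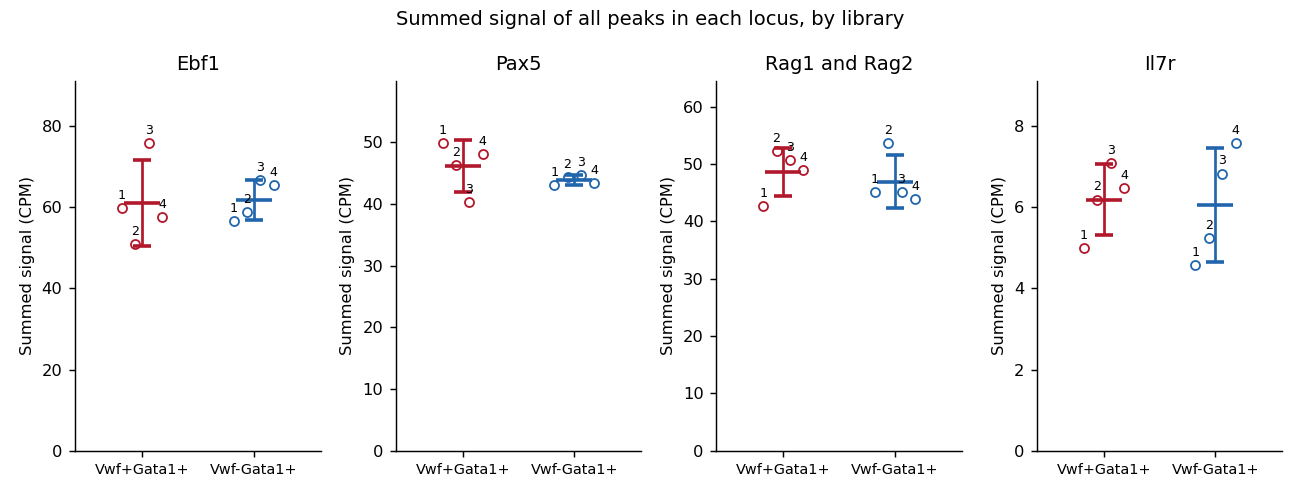
Circles are the summed signal (CPM) of all peaks of a locus in 1 library, numbered by replicate, and bars show the mean ± SD over 4 libraries. The groups overlap at each locus, and the Il7r sums stay between 4.57 and 7.59 CPM.

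The likeness of sites over the 8 libraries was described by Pearson's r of log2 CPM after adding 2 counts, among the 29 members. Ebf1 peak 10 was most like Il7r peak 1 (r = 0.88), Rag peak 1 most like Il7r peak 3 (r = 0.68) and Pax5 peak 6 most like Il7r peak 2 (r = 0.49). Each is the highest of 28 values from the same 8 libraries, which share their depth and scaling, and the Il7r peaks rest on few counts.

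Sites at the window edges set the membership. Just inside, Ebf1 peak 1 had 1.2 ± 0.456 against 1.24 ± 0.421 CPM and Pax5 peak 9 had 1.58 ± 0.747 against 1.56 ± 0.495 CPM. Just outside, the peak 0.507 kb before the Rag window (chr2:101464116-101464493) had 3.72 ± 0.918 in the Vwf+Gata1+ fraction and 4.85 ± 0.924 CPM in the Vwf-Gata1+ fraction. The peak 8.32 kb after it had 25.6 ± 1.46 against 23.6 ± 2.44 CPM. The nearest site beyond Pax5, 33.6 kb after its window, had 64.3 ± 3.78 against 63.1 ± 4.61 CPM, above every member. The nearest peaks outside the Ebf1 window (6.77 kb before and 144.0 kb after) and the Il7r window (22.2 kb before and 29.7 kb after) had group means from 0.308 to 3.33 CPM.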

How the data were processed

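Bulk ATAC-seq (Omni-ATAC) libraries of 2 sorted MPP2 fractions were used, 4 per fraction. The authors deposited raw counts for 134473 peaks. The submitters' processing notes name mm9 as the build and list MACS2, Bowtie2, Picard, SAMtools, Trim Galore and FastQC, with no versions or roles. Duplicate handling, the Tn5 shift, peak merging and whether reads or fragments were counted are not given in the sources used here. Groups came from the labelled cell type and replicate numbers from the titles.

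Peaks were kept by edgeR's filterByExpr (minimum count 10, minimum total 15), which left 97040, and scaled by TMM. The fit ran across all kept peaks with robust quasi-likelihood F tests, Benjamini-Hochberg adjustment and a threshold of 0.05. The SE was obtained by dividing the absolute log2 difference by the root of the F statistic, and intervals are at 95%. CPM uses the totals of kept peaks. The script was also run on simulated data, and the share of changes it recovered is not given here. Software was edgeR 4.0.16, DESeq2 1.42.0 and limma 3.58.1 in R 4.3.3, and matplotlib 3.10.9 in Python 3.11.15.

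All peaks of a window with 6 or fewer were named. In the others the rule took the 3 strongest and, in each direction, the 2 of lowest p. The members, windows and lists were chosen with earlier results of these data known. The planned lists of other lymphoid, erythroid, myeloid and gate genes were not analysed here, since they need an mm9 annotation.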

Additional observations from a re-analysis of the deposited data

Results flagged for a closer look

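Dixon's gap test was applied to 42 groups of 4 libraries (4 summed loci and 17 named peaks, 2 groups each) and marked 4. By chance about 1 in 20 groups would be marked. The summed Rag signal in replicate 2 of Vwf-Gata1+ cells was 53.7 CPM, where the other libraries of that group had 43.8 to 45.1 CPM. Ebf1 peak 8 had 4.84 CPM in replicate 1 of Vwf-Gata1+ cells against 2.77 to 3.12 CPM in the others. Ebf1 peak 12 had 2.34 CPM, or 12 counts, in replicate 3 of Vwf-Gata1+ cells against 3.36 to 3.54 CPM. Pax5 peak 3 had 5.75 CPM, or 40 counts, in replicate 4 of Vwf+Gata1+ cells against 3.44 to 3.82 CPM.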

How the results depend on the processing

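No member was called in any of the 15 other fits, whose lowest adjusted p over the named peaks was 0.5. Over all peaks the calls moved more: 14 as reported, 27 with total count scaling, 11 with DESeq2, 0 with limma-voom (7236 at an unadjusted p under 0.05), 511 with the replicate number as a block and 3 to 76 without 1 library. With that block 0 members were called, as without it. No label says that a number pairs libraries. Deviations of same-numbered libraries correlated at 0.301, 0.163, 0.074 and 0.0103. Among the 4 libraries of the other fraction, 5 of 8 libraries correlated best with their own number. Whether this is more than unpaired libraries would give was not tested.

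For the 15 named and tested peaks, 196 of 225 values kept their sign and 29 did not. Those that changed sign had been at most 0.158 in size on the log2 scale. Outside the fits that leave out a library these were Il7r peak 1 at -0.000116 with the replicate block, -0.01 with total count scaling and -0.02 with limma-voom, and Ebf1 peaks 3 and 10, both at -0.03 with limma-voom. The cause was not tested. Without 1 library the log2 values ran from -0.12 to 0.07 at Ebf1 peak 2, -0.09 to 0.13 at peak 3, -0.07 to 0.33 at peak 8, -0.29 to 0.05 at peak 9 and -0.15 to 0.13 at peak 10. They ran from -0.08 to 0.04 at Rag peak 1, -0.26 to 0.3 at Rag peak 3, -0.01 to 0.3 at Rag peak 4, -0.17 to 0.18 at Il7r peak 1 and -0.000112 to 0.32 at Il7r peak 2. Pax5 peak 5 ran from -0.79 to -0.31 and Pax5 peak 3 from 0.13 to 0.7, against -0.45 and 0.37 with all libraries, and Rag peak 5 ran from 0.26 to 0.48. In 4 of these fits 1 tested member, out of 20 to 23, had an unadjusted p under 0.05 in edgeR. These were Pax5 peak 5 without replicate 1 of Vwf+Gata1+ cells (-0.79, edgeR adjusted p = 0.5) and without replicate 4 of Vwf-Gata1+ cells (-0.64, adjusted p = 0.805), Pax5 peak 3 without replicate 2 of Vwf-Gata1+ cells (0.7, adjusted p = 0.788) and Rag peak 5 without replicate 2 of Vwf+Gata1+ cells (0.47, adjusted p = 0.824). Over all peaks the same fits, in that order, had 7969 of 100205, 6010 of 100560, 6014 of 103316 and 6266 of 103474 under 0.05.

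The median peak of Ebf1 stood at the 51.8th percentile of all peaks, or 46.2 per kb of width. That of the Rag window stood at 65.8, or 59.6 among kept peaks only. That of Pax5 stood at 39.5, or 35.9 per kb and 34.2 among kept peaks only. That of Il7r stood at 45.2, or 20.1 per kb and 27.0 among kept peaks only. The median SE over the 20 tested members was 0.271 on the log2 scale, and the filter on low counts left out the other 9.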
